A study of Mus musculus with 8 samples.

Results

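RNA of 8 podocyte genes was examined in kidney tubuloids, 3-dimensional structures grown in Matrigel from primary fragments of mouse kidney. The genes were Nphs1, Synpo, Podxl, Ptpro, Magi2, Cd2ap, Actn4 and Wt1, taken by symbol as 8 of the 24063 genes of the count tables, with 14 of the 33068 transcripts. All 8 libraries had the genotype Pkd2fl/fl Pax8rtTA TetOCre mTmG, so both groups carried the floxed Pkd2 alleles, the Pax8-driven transactivator, the Cre that it switches on and the membrane reporter. The DOX group (n = 4) was given doxycycline, which activates Cre, and the DMSO group (n = 4) was given the solvent, in both cases from day 3 of culture and for 3 days, and RNA was taken on day 7. The labels give an age of postnatal day 7 to 10 for the kidneys, whereas the methods give a younger range. The Pax8 promoter is active in kidney epithelium, the fragments were kept for their tubules, and the labels do not say whether the libraries of a group came from separate animals, so the p-values measure the spread between these libraries only. Libraries are named by their group and number (DMSO 3, 5, 15 and 20, and DOX 9, 12, 19 and 21), and the numbers carry no pairing.

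Podocytes are the epithelial cells that wrap the capillaries of the glomerulus. Their interlocking foot processes are joined by the slit diaphragm, a cell junction built around nephrin (Nphs1) and tied to actin through adaptor proteins such as Cd2ap and Magi2. Podocalyxin (Podxl) is the charged sialomucin of their apical surface, Ptpro is a receptor tyrosine phosphatase of the foot process, and synaptopodin (Synpo) and alpha-actinin 4 (Actn4) organise actin there. Wt1 is a zinc finger transcription factor needed to form the nephron and to keep podocytes differentiated. It is also expressed in nephron progenitors and in cells outside the nephron, while Actn4 and Cd2ap are found in many cell types.

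The libraries held 63922677 to 102716313 counts after summing over transcripts. Counts were seen for 13243 genes in DMSO 20 and 13599 in DOX 19, against 17054 to 17903 in the other 6. DMSO 15 and DOX 21 had 5411 and 4755 counts of the Y-linked Ddx3y and at most 4 counts of Xist, and the other 6 libraries had 0 and at least 4637, so each group held 1 library of the male pattern. Pkd2, the floxed gene, had normalised counts of 4813 to 7538 with DMSO and 4136 to 5952 with DOX (6130 ± 1114 against 4946 ± 772, mean ± SD, n = 4; log2 fold change -0.31, SE 0.215; DESeq2 adjusted p = 0.999), and these groups overlapped. Counts were summed over a whole gene, so a loss of single exons was not tested.

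The 8 genes stood at very different levels. As TPM (a count scaled by transcript length to the same sum in every library, so that genes can be compared) of the most counted transcript, the medians over the 8 libraries were 258.5 for Actn4, 24.0 for Wt1, 14.9 for Cd2ap, 12.0 for Synpo, 5.70 for Podxl, 2.44 for Magi2, 0.877 for Ptpro and 0.00757 for Nphs1. Only Actn4 stood above its next neighbour, Wt1, in all 8 libraries. Synpo exceeded Podxl, and Podxl exceeded Magi2, in 7 of 8, while Cd2ap exceeded Synpo, Magi2 exceeded Ptpro and Ptpro exceeded Nphs1 in 6 of 8. Wt1 and Cd2ap were not in a stable order, Wt1 being the higher in 5 of 8. The 4 transcripts of Ptpro, like those of Synpo and Magi2, share reads that appear to be counted for each of them. Summing TPM over transcripts therefore gave a mean level of 12.6 for Ptpro in place of 3.35, and of 7.85 for Magi2 in place of 3.02. The mean of Ptpro rests on DOX 21, at 71.9 TPM on the summed scale, and its summed median of 3.18 stayed below the 5.70 of Podxl. Other neighbours changed places on the summed scale. The summed median was 6.54 for Magi2, above Podxl, and 17.7 for Synpo, above the 14.9 of Cd2ap.

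**Figure D1:**
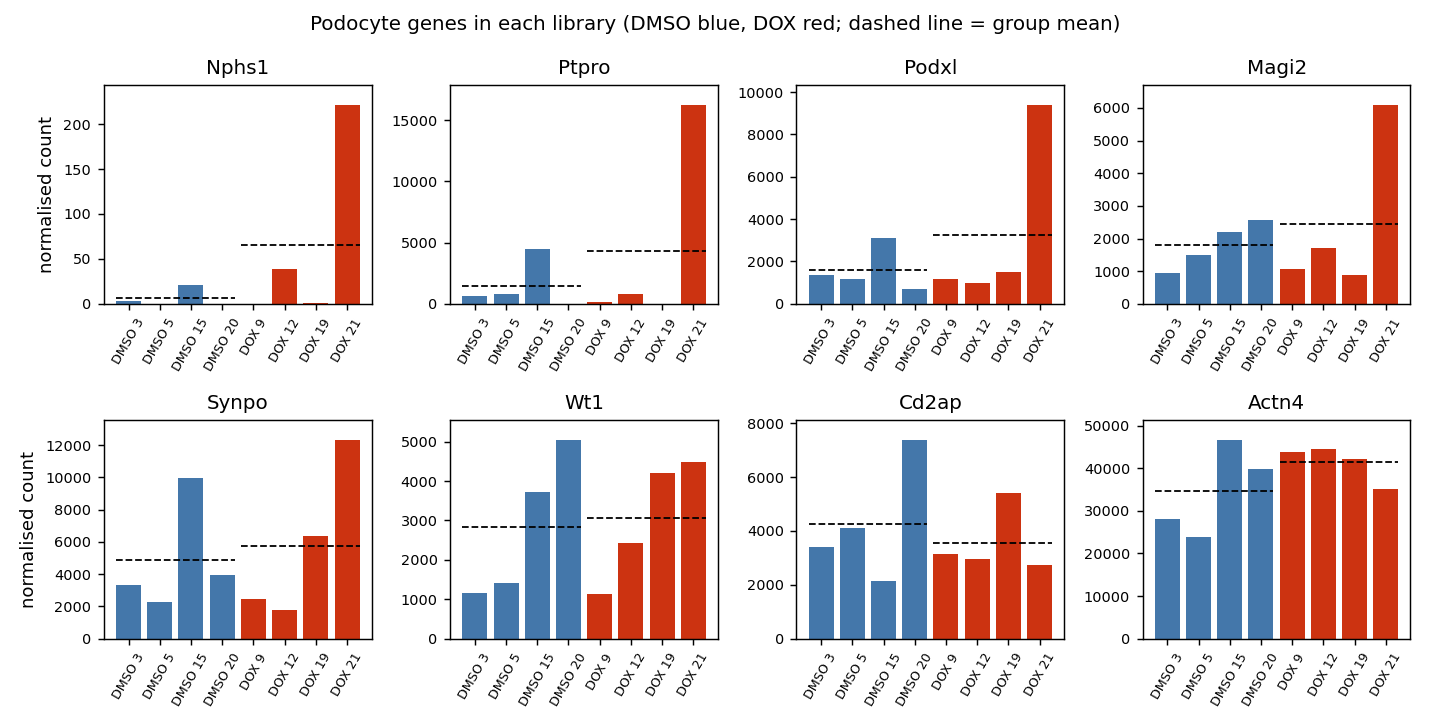
Normalised counts (y axis, linear from 0, with its own range for each gene) of the 8 podocyte genes in each library (x axis), with DMSO libraries in blue, DOX libraries in red and the mean of each group as a dashed line. Nphs1, Ptpro, Podxl, Magi2 and Synpo have their tallest bar in DOX 21, Wt1 and Cd2ap in DMSO 20 and Actn4 in DMSO 15.

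The pattern that set most of these genes apart was a single library. Of the 8 genes, 5 (Nphs1, Synpo, Podxl, Ptpro and Magi2) had their highest normalised count in DOX 21, where 8.11% of 17550 genes with a mean of at least 2 had theirs. Cd2ap and Wt1 had theirs in DMSO 20, as did 18.7% of all genes, and Actn4 in DMSO 15, as did 14.7%. Synpo, Podxl and Ptpro had DMSO 15 in second place as well, an order held by 2.1% of all genes. The count in DOX 21 divided by the median of the other 7 libraries was 25.1 for Ptpro, 7.87 for Podxl, 4.11 for Magi2 and 3.71 for Synpo. These lay in percentiles 99.1 to 99.9 among 13248 genes with a mean of at least 100. It was 1.85 for Wt1 (percentile 95.9), whose second highest library was DOX 21, 0.834 for Actn4 (28.2) and 0.802 for Cd2ap (24.4). DOX 21 and DMSO 15 were also the libraries of the male pattern, and with 1 such library in each group the pattern and the library cannot be told apart. In bulk RNA, more cells of a type and more RNA in each cell cannot be told apart.

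Nphs1 (Entrez 54631, GRCm38.p6 chromosome 7, 30458207 to 30488623), which encodes the adhesion protein of the slit diaphragm itself, was barely detected. Its counts were 3 in DMSO 3, 0 in DMSO 5, 21 in DMSO 15 and 0 in DMSO 20, and 0 in DOX 9, 55 in DOX 12, 1 in DOX 19 and 211 in DOX 21. A count of 0 still allows up to 3 counts, equal to 0.0144 TPM in DMSO 5, 0.0174 in DMSO 20 and 0.0108 in DOX 9, and this limit covers counting error only. The highest level of Nphs1 was thus 0.939 TPM, in DOX 21, and its second highest was 0.200 TPM, in DOX 12. An antisense gene inside it, Nphs1os, had 14 counts in DOX 12, 34 in DOX 21, 1 in DMSO 3 and 0 in the other 5. The library kit does not mark strand, so reads shared by Nphs1 and Nphs1os cannot be told apart.

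Ptpro (Entrez 19277, chromosome 6, 137252299 to 137464634) showed the widest spread of the 7 genes with a mean of at least 100. Its normalised counts were 648, 782, 4509 and 0 in DMSO 3, 5, 15 and 20, and 187, 829, 0 and 16268 in DOX 9, 12, 19 and 21. DOX 21 was the highest and DMSO 15 the second, while both groups had a library at 0. The 0 counts in DMSO 20 and DOX 19 allow up to 0.0149 and 0.0119 TPM. Both were the libraries with the fewest genes detected, and 9.24% of 17550 genes had counts in the other 6 libraries and 0 in both. The part of low detection in the 0 counts of Ptpro was not tested. The coefficient of variation over the 8 libraries (SD divided by mean) was 1.93 for Ptpro, 1.20 for Podxl, 0.806 for Magi2, 0.739 for Synpo, 0.545 for Wt1, 0.440 for Cd2ap and 0.217 for Actn4, against a median of 0.358 over the 13248 genes.

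Ptpro is transcribed from an upstream start, which gives the full-length receptor with its extracellular domain, and from an internal start, which gives a short membrane form known from other cell types. Counts of a long transcript, of 6537 bases, exceeded those of a short transcript, of 4083 bases, in all 6 libraries with counts. The longer one had 242, 251 and 1463 counts in DMSO 3, 5 and 15, where the shorter had 106, 137 and 784. In DOX 9, 12 and 21 the values were 68, 366 and 4997 for the longer and 42, 216 and 2750 for the shorter. The difference between the counts, spread over the 2454 bases that the transcripts differ by, came to 55.4, 46.5, 277, 10.6, 61.1 and 916 counts per kilobase in DMSO 3, 5 and 15 and DOX 9, 12 and 21. The short transcript had 26.0, 33.6, 192, 10.3, 52.9 and 674. The ratio between them lay from 1.03 to 2.13, so reads from the upstream part were present in every library that expressed Ptpro, including those with low levels.

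**Figure D2:**
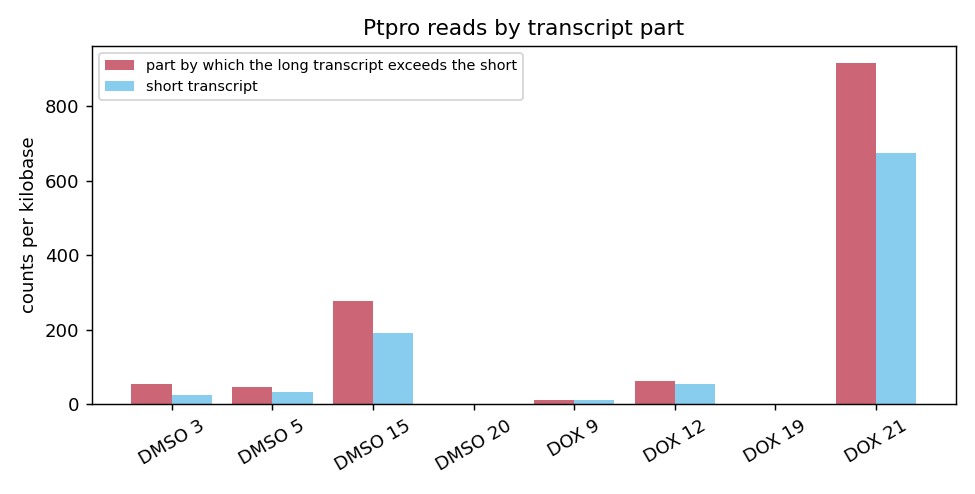
Counts per kilobase of Ptpro (y axis, linear from 0) in each library (x axis), in red for the bases by which the long transcript exceeds the short one and in blue for the short transcript. The red bar is 1.03 to 2.13 times the blue one in the 6 libraries with counts, and DMSO 20 and DOX 19 have none.

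The promoter of Ptpro is shown beside that of Clic5, a chloride channel family protein of the foot process whose counts followed those of Ptpro. Each is the 250 bases before the start in a RefSeq promoter table (GRCm38.p6), which for Clic5 lies inside the annotated span of the gene, printed 5′ to 3′ on the gene's strand, at chr6:137252049-137252298 (plus strand) for Ptpro and chr17:44188322-44188571 (plus strand) for Clic5. Capitals mark matches, on either strand, to GNGGGNGNG, the GC-rich element described for EGR factors and WT1.
Ptpro: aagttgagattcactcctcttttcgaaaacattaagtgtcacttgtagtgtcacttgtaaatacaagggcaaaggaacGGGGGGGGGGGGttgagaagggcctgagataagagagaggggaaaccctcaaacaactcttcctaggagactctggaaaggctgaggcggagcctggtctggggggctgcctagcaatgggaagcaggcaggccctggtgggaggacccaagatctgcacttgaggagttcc
Clic5: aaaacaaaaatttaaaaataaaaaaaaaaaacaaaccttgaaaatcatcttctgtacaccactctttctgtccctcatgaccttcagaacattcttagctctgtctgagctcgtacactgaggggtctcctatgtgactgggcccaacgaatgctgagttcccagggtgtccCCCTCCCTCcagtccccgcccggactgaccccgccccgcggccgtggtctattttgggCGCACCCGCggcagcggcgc
The Ptpro window held 4 matches, which overlap in a single run of G, and the Clic5 window 2. Of 32817 promoters of the same length, 40.1% held at least 1 match. TAATTA, the core bound by LMX1B, was not found in either window, and 4.85% of all promoters held it. GC content was 53.6% for Ptpro and 52.8% for Clic5, with a median of 52.4% over all promoters. A match is a description of the letters and no evidence of binding. Promoters of 5 of the 8 genes were matched in the table.

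Clic5 was named after its values had been seen. Its normalised counts were 263, 224, 2710 and 0 in DMSO 3, 5, 15 and 20, and 89.1, 143, 0 and 3842 in DOX 9, 12, 19 and 21. The 2 high libraries and the 2 libraries at 0 were those of Ptpro.

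Podxl (Entrez 27205, chromosome 6, 31519493 to 31563937) had counts in every library. Its normalised counts were 1345, 1193, 3118 and 721 in DMSO 3, 5, 15 and 20, and 1155, 977, 1482 and 9396 in DOX 9, 12, 19 and 21. DOX 21 was the highest and DMSO 15 the second, and the remaining 3 DOX libraries lay within the DMSO values.

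Synpo (Entrez 104027, chromosome 18, 60593981 to 60660173) had normalised counts of 3327, 2275, 9949 and 3930 in DMSO 3, 5, 15 and 20, and 2474, 1777, 6350 and 12339 in DOX 9, 12, 19 and 21. DOX 21 and DMSO 15 were again the highest, and unlike Ptpro, Synpo kept intermediate values in DMSO 20 and DOX 19. Of its 2 transcripts, 1 had 2.16 to 3.00 times the counts of the other in each library.

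Magi2 (Entrez 50791, chromosome 5, 19219387 to 20704792), a scaffold of the slit diaphragm that is also abundant in brain, had normalised counts of 956, 1482, 2214 and 2580 in DMSO 3, 5, 15 and 20, and 1070, 1719, 895 and 6096 in DOX 9, 12, 19 and 21. Its second place fell to DMSO 20, not DMSO 15. Apart from DOX 21, its values lay between 895 and 2580.

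**Figure D3:**
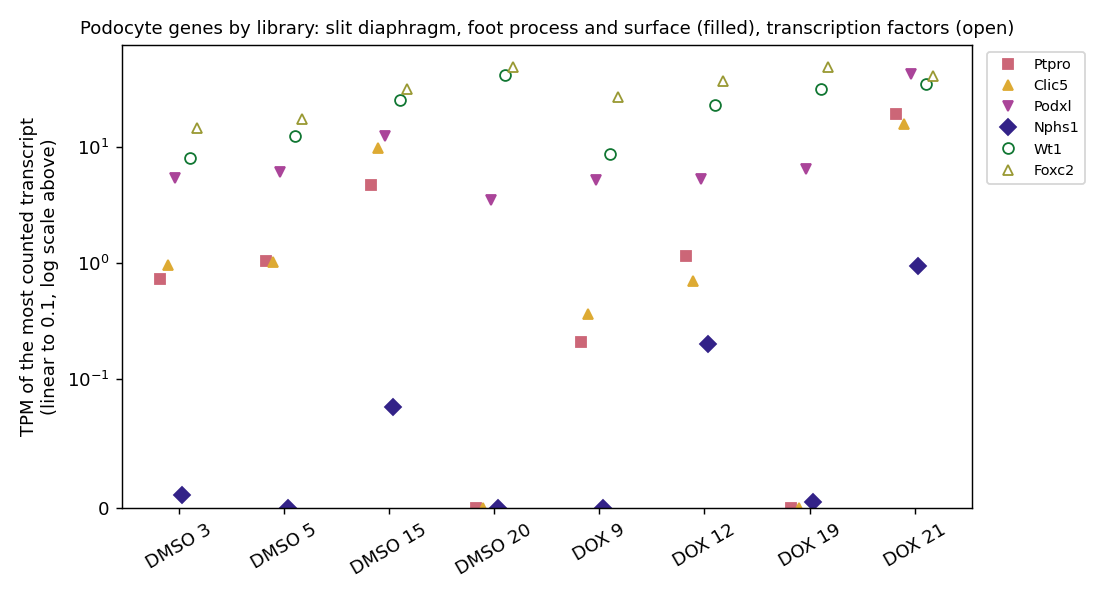
TPM of the most counted transcript (y axis, linear up to 0.1 and logarithmic above) in each library (x axis), with filled symbols for slit diaphragm, foot process and surface genes and open symbols for transcription factors. Ptpro and Clic5 lie at 0 in DMSO 20 and DOX 19, where Wt1 and Foxc2 lie at 31.7 TPM or more.

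Wt1 (Entrez 22431, chromosome 2, 105126529 to 105173614) followed another order. Its normalised counts were 1158, 1420, 3711 and 5054 in DMSO 3, 5, 15 and 20, and 1120, 2431, 4193 and 4487 in DOX 9, 12, 19 and 21. The highest value was in DMSO 20, in which Ptpro and Clic5 had no counts, and DOX 19, the other library without them, came after DOX 21. On the TPM scale, the level of Wt1 was 41.9 in DMSO 20 and 31.7 in DOX 19, against 34.8 in DOX 21 and 25.3 in DMSO 15. The span of the antisense gene Wt1os (105076538 to 105126510) lies just below that of Wt1 in chromosome coordinates. Wt1os had 104, 175, 269 and 1 counts in DMSO 3, 5, 15 and 20, and 115, 247, 82 and 360 in DOX 9, 12, 19 and 21. Wt1os was thus near 0 in DMSO 20, in which Wt1 was highest. Its lowest counts were in DMSO 20 and DOX 19, the libraries with the fewest genes detected. The part of low detection in these counts was not tested.

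Foxc2 and Tcf21, other podocyte transcription factors, also had counts in the libraries at 0 for Ptpro. Foxc2, a forkhead factor, had normalised counts of 1871, 1758, 4052 and 5141 with DMSO and 3027, 3506, 5710 and 4638 with DOX, in the same order of libraries. Foxc2 was highest in DOX 19. Tcf21, a basic helix-loop-helix factor that is also a factor of stroma, had its highest normalised counts in DOX 21 (6581) and DOX 12 (5691). As TPM it reached 134 in DOX 12 and 129 in DOX 21.

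Cd2ap and Actn4, the broadly expressed members, did not share the peak in DOX 21. Cd2ap (Entrez 12488, chromosome 17, 42748887 to 42876707) had normalised counts of 3395, 4099, 2145 and 7398 in DMSO 3, 5, 15 and 20, and 3131, 2975, 5425 and 2724 in DOX 9, 12, 19 and 21. DMSO 20 and DOX 19 were its highest libraries, and DMSO 15 and DOX 21 its lowest. Actn4 (Entrez 60595, chromosome 7, 28893248 to 28962351) had 28147, 23901, 46771 and 39971 with DMSO and 43778, 44621, 42173 and 35185 with DOX, in the same order, and was the steadiest of the 8. The end of Actn4 overlaps Capn12 on the other strand, which had 260 to 805 counts per library, so a shared read cannot be assigned.

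The comparison of DOX with DMSO asks whether the RNA of these genes changed after Cre was activated in the Pax8 lineage. None of the 8 genes was called by DESeq2 (1.5-fold or more and an adjusted p of 0.05 or less), by edgeR or by limma, and 0 had an unadjusted p under 0.05 in any of these tests, of which edgeR and limma tested 7 of the 8. Over all genes, DESeq2 called 25 of 17011, 0.147% (14 or 0.0823% higher with DOX and 11 or 0.0647% lower), and 4.67% of 19268 had an unadjusted p under 0.05, whereas edgeR and limma called 0 of 15562 with 476 and 478 at an unadjusted p under 0.05. The groups overlapped for all 8 genes, while they did not overlap for 2.72% of 17550 genes. DESeq2 gave 6 of the 8 an adjusted p, which was 0.999 for each. It gave none for Podxl and Ptpro, because 1 library was too far from the rest by its test of influence (Cook's distance).

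Mean normalised counts (± SD, n = 4) of the surface and slit diaphragm genes were higher with DOX in value, with an SD larger than the mean in each DOX group. Ptpro had 1485 ± 2045 with DMSO and 4321 ± 7973 with DOX (log2 fold change 1.54, SE 2.58; exact two-sided permutation p = 0.943). Podxl had 1594 ± 1050 and 3253 ± 4101 (1.03, SE 0.810; exact permutation p = 0.629). Nphs1 had 5.97 ± 10.2 and 65.4 ± 106, with an exact permutation p of 0.371, and its fitted log2 fold change of 3.45 (SE 2.35) rests on few counts. These differences were smaller than the spread between libraries. The smallest p that 70 assignments of 4 and 4 libraries allow is 0.0286.

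The adaptors and actin regulators also did not differ beyond their spread. Magi2 had 1808 ± 729 and 2445 ± 2460 (log2 fold change 0.44, SE 0.666; exact permutation p = 0.914), and Synpo had 4870 ± 3454 and 5735 ± 4841 (0.24, SE 0.699; exact permutation p = 0.971). Cd2ap was the only member with a negative value, with 4259 ± 2243 and 3564 ± 1252 (-0.26, SE 0.441; exact permutation p = 0.714). Actn4 had 34697 ± 10537 and 41439 ± 4291 (0.26, SE 0.268; exact permutation p = 0.286). Wt1 had 2836 ± 1871 and 3058 ± 1579 (0.11, SE 0.614; exact permutation p = 0.857).

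The direction of most of these differences rested on DOX 21. With all libraries, 7 of the 8 log2 fold changes were above 0, against 8745 of 19634 over all genes. The median of the 8 was 0.35, against -0.08 over all genes. Without DOX 21, 2 were above 0, the median was -0.27, and Ptpro was at -2.13, Magi2 at -0.55, Synpo at -0.46, Podxl at -0.40 and Wt1 at -0.13. Without DMSO 15 the median was 0.70, and Nphs1 had an unadjusted p under 0.05 in DESeq2. Without DMSO 15 and DOX 21, a choice made after seeing the data, 5 were above 0, the median was 0.091, and Actn4 had an unadjusted p under 0.05. With the male or female pattern as a term beside treatment, also added after seeing the data, 7 were above 0, the median was 0.14, and Ptpro was at 0.047, Magi2 at 0.0063 and Podxl at 0.50. None of the 8 was called in these fits.

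**Figure D4:**
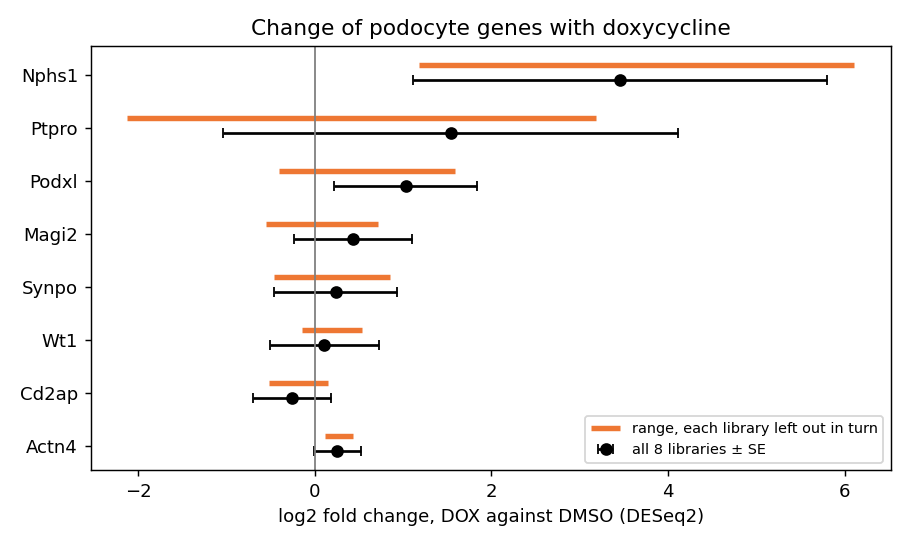
Log2 fold change of DOX against DMSO (x axis) from DESeq2 for each podocyte gene (y axis), as black points with bars of 1 SE for all 8 libraries, and as orange lines for the range when each library was left out in turn. The orange line crosses 0 for Ptpro, Podxl, Magi2, Synpo, Wt1 and Cd2ap, and stays above 0 for Nphs1 (1.17 to 6.11) and Actn4 (0.12 to 0.44).

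The other 43 podocyte genes were likewise not called by DESeq2, edgeR or limma. At an unadjusted p under 0.05, DESeq2 had 2 (Nck2 and Cdkn1c), edgeR 1 and limma 1, and the smallest DESeq2 adjusted p was 0.830. The 2 are 4.88% of the 41 with a p, near the 4.67% of all genes. Without DOX 21, DESeq2 had 0 of 43, beside 918 of 19514 over all genes. Without DMSO 15 it had 6 of 43, beside 1266 of 19478. Without DMSO 20 and DOX 19 it had 4 of 43, beside 1191 of 19581. Log2 fold changes were above 0 for 29 and below 0 for 14 (8745 and 10889 over all genes), with a median of 0.17. Without DOX 21, they were above 0 for 20 and below for 23, with a median of -0.13. Nck2, an adaptor that links phosphorylated nephrin to actin, had normalised counts of 7501 to 11077 with DMSO and 10743 to 20363 with DOX (log2 fold change 0.69, SE 0.303; DESeq2 adjusted p = 0.830). Its groups overlapped, because DOX 9 at 10743 lay below 2 DMSO libraries. Cdkn1c, the cell cycle inhibitor p57 of resting podocytes, had 220 to 2115 with DMSO and 1677 to 7039 with DOX (1.42, SE 0.720; DESeq2 adjusted p = 0.942), with overlap as well.

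By role, 7 of the 10 slit diaphragm and signalling genes had a log2 fold change above 0 and 3 below (median 0.15), and for the 10 foot process cytoskeleton and membrane genes the counts were also 7 and 3 (median 0.18). Of the 6 transcription factors, 4 were above 0 and 2 below (median 0.29), and the 10 basement membrane genes and receptors split into 5 and 5 (median -0.00073). The 7 remaining podocyte-enriched genes had 6 above and 1 below (median 0.71). By TPM of the most counted transcript, several genes that many cells use stood high in these lists. Itgb1, a chain of the laminin-binding integrin, ranged from 318 to 767 TPM, Arhgdia, a regulator of small GTPases, from 127 to 282, and Ezr, which links membrane to actin, from 65.4 to 186.

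Other podocyte genes shared the peak in DOX 21 in part. Of the 43, 15 had their highest normalised count there, against 8.11% of all genes, and 6, among them Clic5, Dach1, Col4a4, Thsd7a and Sema3g, had DOX 21 first and DMSO 15 second, against 2.1%. Col4a3 and Col4a4, chains of the collagen network of the mature glomerular basement membrane, reached 5913 and 1023 normalised counts in DOX 21, 9.31 and 10.8 times the median of the other 7 libraries. Col4a3 had 331 to 1476 in those 7 and Col4a4 65.3 to 302. Col4a5, another collagen chain of the same list, was instead lowest in DOX 21, at 4340, 0.631 times the median of its other 7 libraries. Of the 10 basement membrane genes and receptors, 2 were highest in DOX 21. Of the 43, 3 had 0 counts in DMSO 20 and DOX 19 and counts in the other 6 libraries, against 9.24% of all genes. Clic5 and Thsd7a were among them, with the same pattern as Ptpro. These genes were listed after their values had been seen.

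Paralogs of the 8 genes, to which reads may be shared in ways that the counting does not show, did not have the peak in DOX 21. None of the 12 was highest in DOX 21. Sh3kbp1, the relative of Cd2ap, had 23.2 to 86.5 TPM, Actn1, the relative of Actn4, 21.9 to 44.7, and Podxl2, the relative of Podxl, 9.99 to 34.4. None was called, and Ptprj, a phosphatase of the same class as Ptpro, was the only one with an unadjusted p under 0.05, at 1431 to 3695 normalised counts with DMSO and 849 to 2288 with DOX (log2 fold change -0.95, SE 0.428; DESeq2 adjusted p = 0.837).

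Markers of the other cell types of the glomerulus and the tubule did not give a single picture in DOX 21 and DMSO 15. The TPM, summed over transcripts, of 9 glomerular endothelium genes was 878 in DOX 21 and 141 in DMSO 15, with 157 to 634 in the other 6, and Plvap alone gave 77.5 to 703. On the same scale, Emcn had 22.1 to 160, Flt1 7.46 to 20.8 and Ehd3 up to 8.86, while Pecam1, Cdh5, Kdr, Tek and Nos3 stayed at or below 0.835 in every library. The sum of 8 mesangium and mural genes was 3329 in DMSO 15 and 735 in DOX 21 (253 to 1228 in the others), and that of 6 stroma genes was 2452 and 493 (181 to 794). The sum of 9 tubule genes was lowest in these libraries, at 436 in DMSO 15 and 533 in DOX 21, against 808 to 1769 in the others, and Aqp2, the water channel of collecting duct principal cells, had no counts in most libraries. The sums lay between 106 and 275 for 4 parietal epithelium genes and between 18.3 and 67.4 for 7 nephron progenitor genes. Their part in the levels of the podocyte genes was not tested.

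None of these marker genes was called by DESeq2, edgeR or limma. Over all genes, DESeq2 log2 fold changes were above 0 for 8745 and below 0 for 10889 (median -0.08). Log2 fold changes were above 0 for 5 and below 0 for 4 of the endothelial genes (median 0.21), 3 and 5 of the mesangial genes (-0.25), 2 and 5 of the progenitor genes (-0.29), 0 and 4 of the parietal genes (-0.49), 1 and 8 of the tubule genes (-0.65), 0 and 6 of the stroma genes (-1.07) and 4 and 8 of the paralogs (-0.11). Tagln in the mesangial list (log2 fold change -1.86) and Col1a1 in the stroma list (-1.85) had an unadjusted p under 0.05 in DESeq2 but not in edgeR or limma, and DMSO 15 was far above the other libraries for both, at 128659 and 163258 normalised counts. Itga8 in the mesangial list (0.94) had one in limma only.

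Genes like Nphs1, Synpo, Podxl, Ptpro and Wt1, and not like the other members, were searched among 13241 genes with a mean of at least 100. Those most like each in log2 normalised counts over the 8 libraries were found by Pearson's r, as a description. They were Ptgfr (0.997), Clic5 (0.991) and Alpl (0.990) for Ptpro, and Tmem159 (0.950), Yipf5 (0.942) and 4930592A05Rik (0.927) for Podxl. For Synpo they were Selk (0.971), Smim1 (0.956) and Uaca (0.949), and for Nphs1 Lhfp (0.927), Snai1 (0.910) and Gm17801 (0.895). For Wt1 they were Hoxa10 (0.976), Ptprd (0.968) and Zeb2os (0.965). No gene was named for more than 1 of them. The 8 points share their library sizes and, for Ptpro and its companions, the pair of libraries at 0.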

How the data were processed

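Poly-A selected SMART-Seq v4 libraries were sequenced by the authors, aligned with STAR and counted per RefSeq transcript on mm10 (STAR, featureCounts and DESeq2 are named in the submitters' processing notes). Versions and counting settings were not given in the sources used here. The deposited counts are whole numbers per transcript. The deposited FPKM scales them by length and library total and was not used for results, and the deposited TPM rescales FPKM to a fixed sum. Counts were summed by symbol, and DESeq2 1.42.0 (R 4.3.3) was fitted to all 8 libraries with median-of-ratios scaling and independent filtering at 0.1. A call required 1.5-fold or more and a p of 0.05 or less after Benjamini-Hochberg adjustment over all genes. Tests with edgeR 4.0.16 and limma 3.58.1, other scaling and filters, a term for the male or female pattern (Ddx3y against Xist), 1 transcript per gene and left-out libraries were alternatives. The scripts were tested on simulated counts of 17550 genes, 200 of them changed 4-fold. DESeq2 recovered 60.5% of the 200 with 60 false calls, and edgeR recovered 44% with 5 false calls. Exact permutation tests used log2(normalised count + 1).

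The members, lists and tests were chosen with earlier results of these data known. All members were named. Of each other list, the genes highest in mean TPM, those at 0 in most libraries, those with an unadjusted p under 0.05 and those most like a member could be named. Some genes named outside this rule are marked as chosen after their values were seen. Those in the section on flagged results were named because a library stood apart. The endothelial genes outside the rule were named to complete their list. Positions and promoters are from RefSeq. Some genes of the lists enter the counts but are not reported here by name. With 1 transcript per gene, libraries held 39252852 to 64561676 counts, and the spread between libraries, not counting error, set the precision for well-counted genes.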

Additional observations from a re-analysis of the deposited data

Results flagged for a closer look

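Single libraries stood apart from the other 3 of their group for 6 other podocyte genes, in 7 of 102 groups of 4 libraries tested by the ratio of the gap to the whole range on the log2(normalised count + 1) scale. Chance alone would give about 5.1 such groups. None of the 8 members was among them. DOX 19 and DMSO 20 had counts for 13599 and 13243 genes, against 17054 to 17903 in the other 6 libraries. DOX 19 was at 0 for Trpc6, a cation channel of the slit diaphragm (others 10.05 to 11.13, gap 0.903), for Thsd7a (others 7.94 to 9.18, gap 0.865) and for Pla2r1 (others 7.11 to 7.41, gap 0.960). DOX 19 was above the others for the laminin chain Lama5 (12.19 against 11.21 to 11.36, gap 0.847). DMSO 20 was low for Arhgap24, a regulator of Rac (9.27 against 11.87 to 12.11, gap 0.916), DMSO 15 for the integrin chain Itga3 (12.26 against 13.20 to 13.26, gap 0.939), and DMSO 5 for Pla2r1 (3.92 against 7.57 to 8.02, gap 0.890).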

How the results depend on the processing

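None of the 8 members and none of the other 43 podocyte genes was called under any of the 18 alternatives. Of 140 member values under alternatives, 128 kept their direction and 12 reversed, with adjusted p of at least 0.579 where one was given. Without DOX 21, Ptpro was at -2.13, Magi2 at -0.55, Synpo at -0.46, Podxl at -0.40 and Wt1 at -0.13. Without DMSO 15 and DOX 21, Ptpro was at -0.48 and Magi2 at -0.44. Cd2ap reversed without DMSO 20 (0.15) and Wt1 without DMSO 3 (-0.15), DMSO 5 (-0.11) and DOX 19 (-0.075). With limma-voom, Ptpro was at -0.095, and the cause was not tested. Leaving out 1 library at a time gave 1.17 to 6.11 for Nphs1, -2.13 to 3.18 for Ptpro, -0.40 to 1.58 for Podxl, -0.55 to 0.72 for Magi2, -0.46 to 0.85 for Synpo, -0.15 to 0.54 for Wt1, -0.52 to 0.15 for Cd2ap and 0.12 to 0.44 for Actn4. DESeq2 called 14 to 75 genes in all when 1 library was left out, 48 with the Cook's distance filter off, 51 without DMSO 20 and DOX 19 76 without DMSO 15 and DOX 21 and 43 with the male or female pattern as a term, against 25, and 16 with at least 10 counts in every library. The filters of edgeR and limma removed Nphs1, and that for 10 counts in every library removed Nphs1 and Ptpro. No paired analysis was possible because the groups share no library numbers. Counts for genes with several transcripts appear to overstate reads.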
